A study of Mus musculus with 14 samples.

Results

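The expression of 10 antioxidant enzyme genes was followed in whole kidney RNA of female mice born preterm or at term, with and without streptozotocin (STZ) diabetes. The 10 genes encode glutathione peroxidases (Gpx1, Gpx3 and Gpx4), catalase (Cat), superoxide dismutases (Sod1, Sod2 and Sod3) and peroxiredoxins (Prdx1, Prdx3 and Prdx5). They were chosen by symbol, and all 10 were found among the 56980 genes in the deposited counts and passed the filter on low counts. The 14 libraries came from wild-type CD-1 mice, an outbred stock, aged 18 weeks. The 4 T-ND mice were born at term and given no STZ, and the 4 T-D mice were born at term and given STZ. The 3 PT-ND mice were born preterm and given no STZ, and the 3 PT-D mice were born preterm and given STZ. STZ destroys the insulin-producing cells of the pancreas, and it was injected at a low dose in early adulthood. As a model, the preterm groups differ from the term groups by more than time of birth: the preterm pups were delivered by Caesarean section and raised by foster mothers that drank acepromazine, while term pups were born naturally and stayed with their own mothers. Some PT-D mice, but no T-D mice, needed a second round of STZ. All mice received cationic ferritin, an iron-containing imaging agent, before the kidneys were taken.

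Superoxide, which leaks from the mitochondrial electron chain and is made by NADPH oxidases, is turned into hydrogen peroxide by superoxide dismutases. Catalase, glutathione peroxidases and peroxiredoxins then reduce the peroxide, the last pair with electrons that come from NADPH through glutathione or thioredoxin. The proximal tubule, rich in mitochondria and peroxisomes, holds much of this machinery in the kidney and releases the plasma glutathione peroxidase GPX3 into the blood.

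Between 16697246 and 28673176 reads per library were counted on genes. Levels are given as CPM, the count of a gene relative to all reads on genes in its library, scaled over the 14 libraries. A gene passed the test at an adjusted p under 0.05 (edgeR quasi-likelihood test, Benjamini-Hochberg adjustment over all genes). The replicate numbers are those of the labels, and the labels do not say which mice shared a litter. By the study's methods, STZ was assigned at random and littermates served as term controls, so that treated and untreated mice can share litters. The summed level of 16 proximal tubule markers lay between 13787 and 21076 CPM. T-D replicate 4 stood apart from the other T-D libraries, with the lowest summed level of 10 endothelial markers of all 14 libraries (247 CPM) and the highest of 8 tubular injury markers (4273 CPM). In all, 5 libraries carry the suffix a in their name, 1 or 2 in each group, and what the suffix stands for is not given in the sources used here.

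Few reads on the first member reached the deposited unstranded column, and the annotation places another gene over it. Gpx1 (ENSMUSG00000063856.9, chr9:108216102-108217546 of GRCm39, plus strand) encodes the main glutathione peroxidase of the cytosol and mitochondria. The long noncoding RNA gene Gm57050 (ENSMUSG00000121068.1, chr9:108216011-108217333, minus strand), with 1 exon, covers 1232 of the 1445 exon bases of Gpx1, or 85.3%. In a library that does not keep the strand, a read in the shared bases fits both genes and is left uncounted. The unstranded column held 62 to 627 reads of Gpx1 per library and 1 read of Gm57050 in all 14 together. The 2 columns counted by strand, which assign a read by the strand it happens to lie on, added up to 34456 to 91611 reads for Gpx1. For Gm57050 they added up to 34300 to 91432, since each shared read is counted once for either gene. The unstranded column thus kept 0.144% to 1.18% of the reads on Gpx1, and these libraries cannot divide the rest between the 2 genes.

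**Figure D1:**
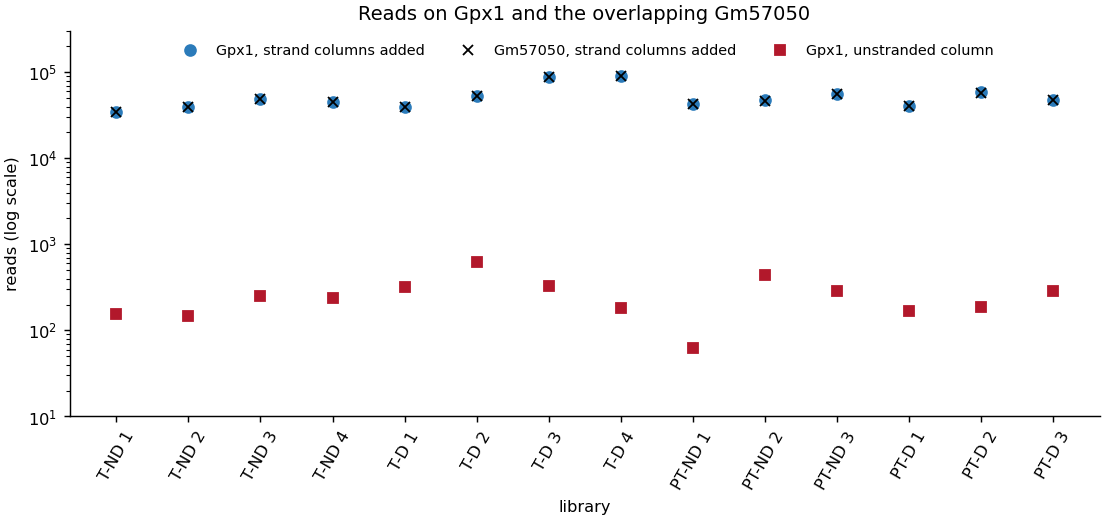
Reads on Gpx1 and the overlapping Gm57050 in each of the 14 libraries, on a log scale. Squares are the unstranded column for Gpx1 (62 to 627 reads); circles and crosses are the strand columns added for Gpx1 (34456 to 91611) and Gm57050 (34300 to 91432), which nearly coincide.

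The other 9 members lost little by this route. Of 12682 genes with at least 1000 reads in the strand columns, 926 kept under 10% of them in the unstranded column. Gpx1 ranked 2nd among these by reads, and no other member was among them. Prdx5, whose exons overlap those of Trmt112 on the other strand, had 101% as many reads in the strand columns as in the unstranded column, and the remaining 8 members had 100%. Gpx1 is therefore given below from the strand columns, as reads on Gpx1 or Gm57050, and from the unstranded column where named.

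The 3 glutathione peroxidase members are selenoproteins, in which an in-frame TGA is read as selenocysteine, the residue that reacts with peroxide. The coding stretches around that codon are shown because they mark the catalytic site and set these genes apart from the other 7 members, none of which holds an in-frame TGA in its canonical transcript. Each stretch runs from 10 codons before the TGA, in capitals, to 10 codons after it, on the plus strand of GRCm39.
Gpx1, TGA at codon 47, chr9:108216650-108216652: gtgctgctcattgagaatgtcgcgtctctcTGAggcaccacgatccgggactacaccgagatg
Gpx3, TGA at codon 73, chr11:54798082-54798084: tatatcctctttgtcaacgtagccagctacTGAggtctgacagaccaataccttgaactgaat
Gpx4, TGA at codon 73, chr10:79890571-79890573: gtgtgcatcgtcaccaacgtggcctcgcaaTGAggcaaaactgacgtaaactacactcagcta
The Gpx1 codon lies within the bases shared with Gm57050.

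From the strand columns, Gpx1 stood at 1809, 1591, 2253 and 2159.9 CPM in T-ND and at 1997, 2877, 2973 and 5187 CPM in T-D. It stood at 1979, 2360.4 and 2886 CPM in PT-ND and at 1658, 1938 and 1691 CPM in PT-D. All 3 PT-D kidneys lay below every PT-ND and every T-D kidney, by a narrow margin, and inside the range of T-ND. The unstranded column gave another order: 18.1, 37.8, 12.5 and 11.6 CPM in T-D, where replicate 4, the highest by the strand columns, was the lowest of its group. In PT-ND the unstranded values were 3.20, 24.8 and 16.4 CPM.

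Gpx3 (ENSMUSG00000018339.13, chr11:54793279-54802424, plus strand), the secreted enzyme, took 2.83% to 5.4% of all reads on genes and ranked between 1st and 3rd of all genes in each library. Its level was 41318, 39588, 34838 and 36449 CPM in T-ND and 38801, 36511, 56498 and 45901 CPM in T-D. In PT-ND it was 36076, 44853 and 58318 CPM, and in PT-D 37329, 37304 and 25925 CPM. The groups overlapped in each comparison, and PT-D replicate 3 had the lowest level of the 14 libraries.

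Gpx4 (ENSMUSG00000075706.12, chr10:79883000-79892273, plus strand) reduces lipid peroxides in membranes and guards against ferroptosis. Its level was 912, 958, 808 and 799 CPM in T-ND and 780.3, 1027, 1224 and 1981 CPM in T-D. It was 887, 1016 and 1340.1 CPM in PT-ND and 686, 829 and 593 CPM in PT-D, where every kidney lay below every PT-ND kidney. The 2 pseudogenes named after Gpx4 held 11320 reads against 273393 on Gpx4, so a small part of its reads could be misassigned.

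Catalase breaks down hydrogen peroxide in peroxisomes. Cat (ENSMUSG00000027187.11, chr2:103284194-103316185, minus strand) stood at 874, 730.4, 767 and 797 CPM in T-ND, and at 708, 827, 862 and 530.2 CPM in T-D. It stood at 964, 806 and 797 CPM in PT-ND and 737, 871 and 758 CPM in PT-D. The 4 groups overlapped, and T-D replicate 4 was the lowest of all libraries.

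Sod1 encodes the copper and zinc superoxide dismutase of the cytosol. Sod1 (ENSMUSG00000022982.11, chr16:90017408-90027657, plus strand) read 659.6, 690.1, 474 and 523 CPM in T-ND and 498, 597, 578 and 986 CPM in T-D. It read 511, 697 and 833 CPM in PT-ND and 360.3, 415 and 369 CPM in PT-D. The 3 PT-D kidneys were the 3 lowest of all 14.

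The other dismutases did not separate the groups in this way. Sod2 (ENSMUSG00000006818.6, chr17:13224095-13259591, plus strand), the manganese enzyme of the mitochondrial matrix, read 448, 416, 462 and 463 CPM in T-ND and 458, 554, 582 and 717 CPM in T-D. It read 429.8, 410.2 and 576 CPM in PT-ND and 411, 462 and 416 CPM in PT-D. Sod3 (ENSMUSG00000072941.6, chr5:52521070-52528883, plus strand), the extracellular enzyme, ranged from 419.7 to 566 CPM in T-ND, from 342 to 683 CPM in T-D, from 472 to 561 CPM in PT-ND and from 427 to 624 CPM in PT-D. T-D replicate 4 was the highest library for Sod2 and the lowest for Sod3.

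Peroxiredoxins reduce peroxides with electrons from thioredoxin. Prdx1 (ENSMUSG00000028691.13, chr4:116532123-116558398, plus strand), an abundant cytosolic form, read 1277, 1386, 815 and 891 CPM in T-ND and 900.1, 1014, 1154 and 1812 CPM in T-D. It read 920.3, 1086 and 1398 CPM in PT-ND and 651, 775 and 561 CPM in PT-D. As with Sod1, the 3 PT-D kidneys lay below all others.

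Prdx3 (ENSMUSG00000024997.8, chr19:60852489-60863017, minus strand) encodes the form of the mitochondrial matrix. It read 231, 258, 215 and 231 CPM in T-ND and 239.5, 266, 303 and 405 CPM in T-D. In PT-ND it ranged from 238 to 313 CPM, and in PT-D it read 191, 217 and 171 CPM, below every PT-ND and T-D kidney.

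Prdx5 (ENSMUSG00000024953.18, chr19:6884065-6887792, minus strand) encodes a form found in mitochondria, peroxisomes and cytosol. It read 1705, 1761, 1298 and 1358 CPM in T-ND and 1429.8, 1611, 1766 and 2744 CPM in T-D. In PT-ND it read 1396, 1732 and 2393 CPM, and in PT-D 1086, 1076 and 954 CPM. Here too the PT-D kidneys were the 3 lowest of the 14.

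**Figure D2:**
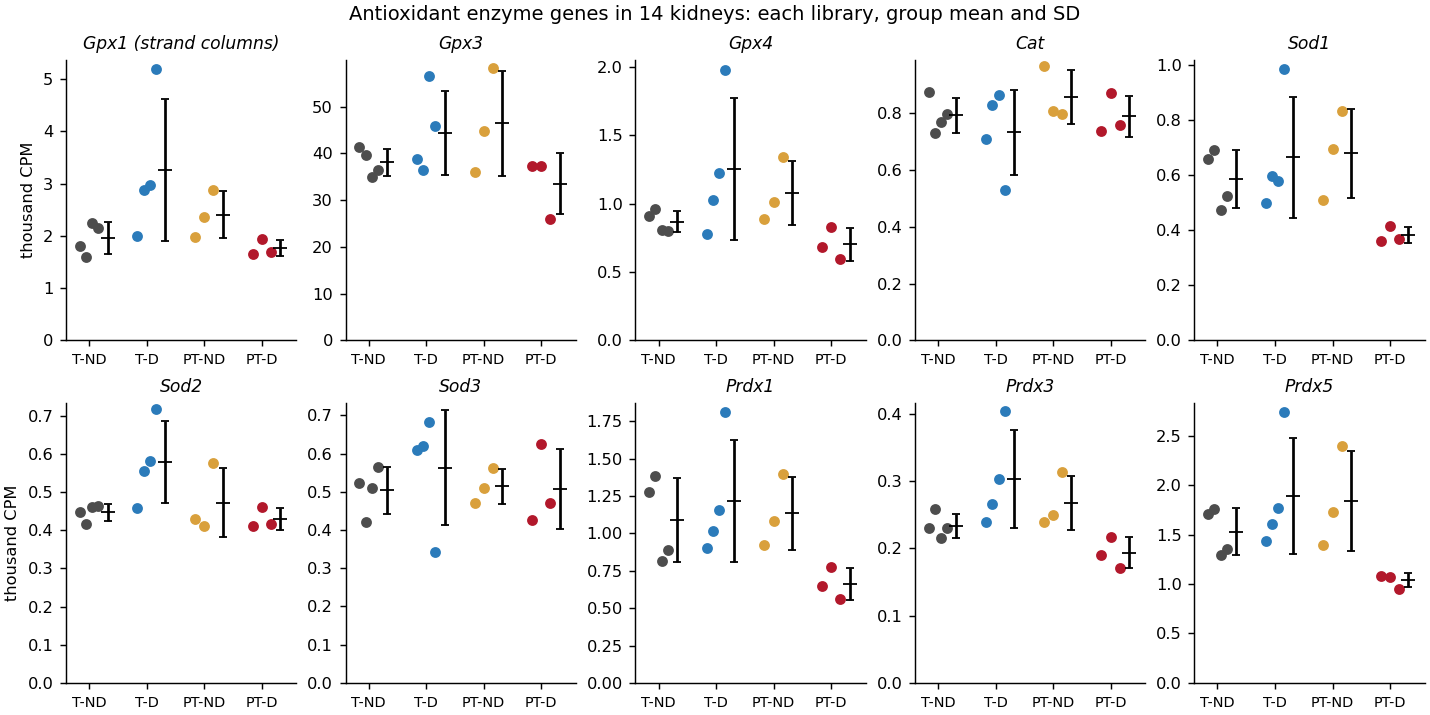
Level of each member by group, in units of 1000 CPM; each point is a library, and the bar beside each group is the mean with its SD (n = 4, 4, 3 and 3). Gpx1 is drawn from the strand columns. The 3 PT-D kidneys lie below all others for Sod1, Prdx1 and Prdx5, while Cat, Sod2 and Sod3 overlap between groups.

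Per length, Gpx3 stood far above the other members. Its mean over the 14 libraries was 14314 CPM per kilobase of the canonical transcript, followed by Gpx1 with 2223 CPM per kilobase from the strand columns. Gpx4 with 1031 and Prdx5 with 1009 CPM per kilobase came next, closer to each other than the spread between replicates of either. Below them stood Prdx1 with 391, Cat with 301, Prdx3 with 169, Sod3 with 134, Sod1 with 110.1 and Sod2 with 81.2 CPM per kilobase. The order of the lower members depends on the length used. Sod1 has a canonical transcript of 5315 bases, of which 462 are coding, and per kilobase of coding sequence it moved from rank 9 to rank 6 while Cat moved from rank 6 to rank 9. Gpx3 and Gpx1 were first and second by either length.

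The effect of STZ in mice born preterm, PT-D vs. PT-ND, gave the only calls among the members in a comparison of 2 groups. Sod1, Prdx5 and Prdx1 fell, and the other 7 members did not pass the test. Sod1 was 382 ± 29.4 CPM in PT-D (SD, n = 3) and 680.3 ± 161 CPM in PT-ND (SD, n = 3), and its log2 fold change was −0.83 (SE 0.19, adjusted p = 0.0196). Prdx5 was 1039 ± 73.5 CPM against 1840.5 ± 507 CPM (SD, n = 3 in each group), a log2 fold change of −0.83 (SE 0.21, adjusted p = 0.0271). Prdx1 was 662 ± 107 CPM against 1135 ± 242 CPM (SD, n = 3 in each group), a log2 fold change of −0.78 (SE 0.20, adjusted p = 0.0289). These are falls to 0.561, 0.564 and 0.584 times the PT-ND level. None had a log2 fold change beyond 1 in size, which 4.95% of all genes had together with a passed test. In whole kidney RNA, fewer cells of a type and less RNA per cell cannot be told apart.

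Over all genes in PT-D vs. PT-ND, 12.9% passed the test and 5.78% passed and were lower, against 3 of 10 members. Among the genes of at least 10 CPM on average, to which all 10 members belong, 24.6% passed. The members' share is thus near that of expressed genes. Gpx4 had a log2 fold change of −0.62 (SE 0.20, adjusted p = 0.0637), Prdx3 of −0.47 (SE 0.16, adjusted p = 0.0856) and Gpx3 of −0.47 (SE 0.25, adjusted p = 0.249). Cat, Sod2 and Sod3 lay between −0.14 and −0.02. Gpx1 was at −0.45 from the strand columns (SE 0.19, adjusted p = 0.137) and at −0.77 from the unstranded column (SE 0.53, adjusted p = 0.371). The log2 fold change was below 0 for all 10 members, as it was for 47.5% of all genes, and the median of the members was −0.47 (−0.55 with Gpx1 from the unstranded column) against 0.05 over all genes. PT-D lay wholly below PT-ND for 5 members from the unstranded column, where 15.8% of all genes and 25.6% of genes of at least 10 CPM did so.

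These calls rested on few libraries. Without PT-ND replicate 2, PT-ND replicate 3 or PT-D replicate 3 none of the 3 passed, without PT-D replicate 2 Sod1 and Prdx1 did, and without PT-ND replicate 1 also Gpx1 (unstranded) and Gpx4 passed. Among the libraries without the suffix a, 2 in each of these groups, none passed, with log2 fold changes of −0.78 for Sod1 (adjusted p = 0.0993), −0.80 for Prdx1 (adjusted p = 0.101) and −0.90 for Prdx5 (adjusted p = 0.0775).

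Transcript length moved with this comparison. Over protein-coding genes of at least 10 CPM, the median log2 fold change in PT-D vs. PT-ND was −0.60 for 342 genes whose canonical transcript is under 1000 bases and −0.39 for 1467 genes of 1000 to 1999 bases. It was −0.06 for 3469 genes of 2000 to 3999 bases and 0.30 for 3671 genes of 4000 bases or more. The study used samples over a range of RNA integrity and reports no difference in it between groups. Its part in this trend with length was not tested. Gpx4, with 959 bases, was at −0.62, close to the median of its class, and so was Prdx3, with 1488 bases, at −0.47. Prdx5, with 1580 bases, and Prdx1, with 2673 bases, lay further below their classes. After a correction for transcript length and GC content, Prdx1 had a log2 fold change of −0.84 (adjusted p = 0.0261) and Sod1, entered with its canonical 5315 bases, of −1.09 (adjusted p = 0.0157). Prdx5 was then at −0.49 (adjusted p = 0.0788) and Gpx4 at −0.15 (adjusted p = 0.581). Sod1 is thus treated as a long transcript in this correction, although its coding sequence is the shortest of the 10. Prdx1 has 597 coding bases in a canonical transcript of 2673, so its class and its corrected value also rest on the length assigned to it.

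**Figure D3:**
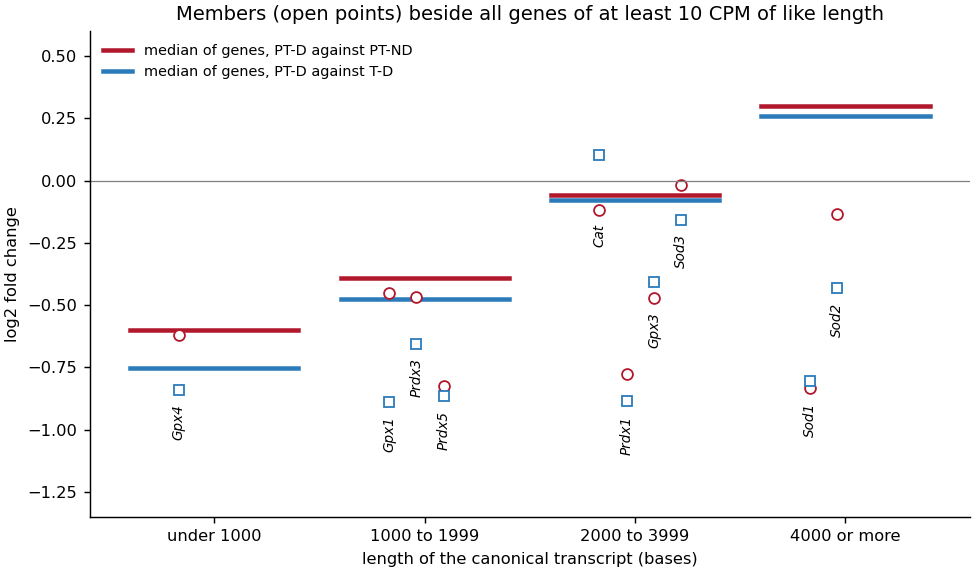
Log2 fold change of the members (circles, PT-D vs. PT-ND; squares, PT-D vs. T-D) in the length class of their canonical transcript, with the median of all protein-coding genes of at least 10 CPM in that class as bars. The medians for PT-D vs. PT-ND run from −0.60 to 0.30 with length. Gpx4 lies near its bar, and Prdx1 and Sod1 lie well below theirs, in classes that rest on the length of the canonical transcript.

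Markers of other cells moved with the same comparison. Tubular injury markers summed to 3381 to 3985 CPM in PT-D and to 2031 to 2135 CPM in PT-ND, and 6 of 8 passed the test as higher. Podocyte markers summed to 522 to 688 CPM against 281 to 486 CPM, with 5 of 6 higher, and smooth muscle and interstitial markers to 339 to 421 CPM against 189 to 309 CPM, with 3 of 10 higher. Endothelial markers summed to 548 to 721 CPM against 358 to 608 CPM, with 4 of 10 higher, and leukocyte markers to 162 to 267 CPM against 154 to 167 CPM, with 2 of 10 higher and a median log2 fold change of 1.00. Proximal tubule markers summed to 13787 to 18072 CPM in PT-D and 19954 to 21076 CPM in PT-ND, with 1 of 16 lower, and 1 of 8 collecting duct and 1 of 6 red cell markers passed as lower. The part of these shifts in the fall of Sod1, Prdx1 and Prdx5 was not tested.

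Preterm birth within STZ diabetes, PT-D vs. T-D, gave larger differences than errors for several members but no call. PT-D lay wholly below T-D for Gpx1, Sod1, Prdx1, Prdx3 and Prdx5, which is 5 of 10 members, where 10.6% of all genes and 20.6% of genes of at least 10 CPM did so. None of the 10 members passed in edgeR, where 0.193% of all genes did. An unadjusted p under 0.05 was reached by 7 of 10 members and by 22.3% of all genes. By DESeq2, 6 members passed as lower (Gpx1 from the unstranded column, Gpx4, Sod1, Prdx1, Prdx3 and Prdx5), as did 10.2% of all genes in either direction. Prdx1 was 662 ± 107 CPM (SD, n = 3) against 1220.1 ± 408 CPM (SD, n = 4), a log2 fold change of −0.89 (SE 0.26, adjusted p = 0.0958). Prdx5 had a log2 fold change of −0.87 (SE 0.24, adjusted p = 0.0908), Gpx4 of −0.84 (SE 0.29, adjusted p = 0.129), Sod1 of −0.81 (SE 0.24, adjusted p = 0.0985) and Prdx3 of −0.66 (SE 0.21, adjusted p = 0.111). Gpx1 from the strand columns was at −0.89 (SE 0.30, adjusted p = 0.123). Sod2 was at −0.43, Gpx3 at −0.41, Sod3 at −0.16 and Cat at 0.10, with adjusted p between 0.209 and 0.806.

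The median of the members in PT-D vs. T-D was −0.73 against 0.06 over all genes. The medians by length ran here from −0.75 for genes under 1000 bases to 0.26 for those of 4000 bases or more. This comparison shares the PT-D libraries with PT-D vs. PT-ND, so that the 2 are not independent. Without T-D replicate 4 the log2 fold changes of some members were smaller, −0.53 for Gpx4, −0.55 for Sod1 and −0.57 for Gpx1 from the strand columns, again with no call. Cat was at −0.02 without it, and Sod3 ran from −0.33 to −0.05 over the fits with a library left out. Podocyte markers summed to 522 to 688 CPM in PT-D and 159 to 498 CPM in T-D, and endothelial markers to 548 to 721 against 247 to 489 CPM. Smooth muscle and interstitial markers summed to 339 to 421 against 183 to 308 CPM. The median log2 fold change was 1.14 for leukocyte markers and −1.15 for red cell markers, of which all 6 tested were below 0. No marker passed the test, and the part of these cells was not tested. Besides DESeq2, 5 members passed with no filter on low counts, where 5.96% of all genes did, and 2 (Prdx3 and Prdx5) with all 14 libraries in a single fit, where 5.92% of all genes did.

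For the combined difference, PT-D vs. T-ND, no member passed in edgeR, where 2.76% of all genes did. The members Sod1, Prdx1 and Prdx5 (3 of 10) had an unadjusted p under 0.05, as did 24.3% of all genes, and the same 3 passed by DESeq2, where 12.6% of all genes did. Prdx1 was at −0.73 (SE 0.21, adjusted p = 0.0813), Sod1 at −0.63 (SE 0.16, adjusted p = 0.0609) and Prdx5 at −0.57 (SE 0.15, adjusted p = 0.0679) on the log2 scale. For these 3 the PT-D kidneys lay wholly below T-ND, where 11.2% of all genes did so. All members are genes of at least 10 CPM, among which such shares were higher in the comparisons above. They were 25.6% against 15.8% of all genes in PT-D vs. PT-ND and 20.6% against 10.6% in PT-D vs. T-D. Gpx4 was at −0.32, Prdx3 at −0.28, Gpx3 at −0.19 and Gpx1 from the strand columns at −0.16, while Sod2, Cat and Sod3 lay between −0.07 and −0.00082. Without T-ND replicate 3, Sod1, Prdx1 and Prdx5 passed. Cell markers moved with this comparison too: 6 of 6 podocyte markers passed as higher (median log2 fold change 1.17), as did 2 of 10 endothelial, 2 of 8 tubular injury, 1 of 10 leukocyte and 1 of 10 smooth muscle and interstitial markers, while 1 of 8 loop and distal tubule markers passed as lower. Their part in the values of the members was not tested.

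STZ in term mice, T-D vs. T-ND, pointed the other way for most members, with no call. No member passed in edgeR, where 0.0673% of all genes did, and none passed by DESeq2, where 2.1% did. Gpx1 from the strand columns was 3258 ± 1359 CPM in T-D and 1953 ± 308 CPM in T-ND (SD, n = 4 in each group), a log2 fold change of 0.72 (SE 0.26, adjusted p = 0.331). Gpx4 was at 0.51 (SE 0.24, adjusted p = 0.441), Prdx3 at 0.36 (SE 0.17, adjusted p = 0.446) and Sod2 at 0.35 (SE 0.16, adjusted p = 0.415). Gpx1 and Sod2 were the 2 members with an unadjusted p under 0.05, where 11.8% of all genes had one. The other members lay between −0.13 for Cat and 0.28 for Prdx5. Much of this came from T-D replicate 4: without it Gpx1 from the strand columns was at 0.42, Gpx4 at 0.21, Prdx3 at 0.20 and Prdx5 at 0.06, and Sod1 and Prdx1 turned to −0.08 and −0.10. Sod3 ran from 0.04 to 0.33 over the fits with a library left out. Medians by length ran from 0.36 under 1000 bases to −0.08 at 4000 bases or more. The median log2 fold change was 0.93 for tubular injury, 1.45 for red cell and −0.42 for collecting duct markers, with no marker past the test. The part of length and of these cells was not tested.

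For preterm birth without diabetes, PT-ND vs. T-ND, no member passed in edgeR, where 0.0809% of all genes did, and none passed by DESeq2, where 1.38% did. None had an unadjusted p under 0.05 either, where 10.7% of all genes had one. The log2 fold changes lay between 0.03 for Sod3 and 0.31 for Gpx4 (SE 0.16, adjusted p = 0.511), with Gpx1 from the strand columns at 0.30 (SE 0.17, adjusted p = 0.55). The 2 groups overlapped for each member, while 5.48% of all genes lay wholly higher in PT-ND and 5.54% wholly lower.

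The interaction asks whether the effect of STZ differed between mice born preterm and at term. Prdx5 passed, with a log2 difference of −1.13 (SE 0.32, adjusted p = 0.0491), and was the 1 member of 10 to do so, where 6.23% of all genes passed. Its STZ effect was −0.83 in preterm and 0.28 in term mice. Prdx3 was at −0.84 (SE 0.25, adjusted p = 0.0539), Gpx4 at −1.15 (SE 0.36, adjusted p = 0.0622), Sod1 at −1.01 (SE 0.32, adjusted p = 0.0666) and Prdx1 at −0.94 (SE 0.35, adjusted p = 0.116). Gpx1 from the strand columns was at −1.19 (SE 0.36, adjusted p = 0.0602). Cat was at −0.0034 and Sod3 at −0.18. In all, 8 of 10 members had an unadjusted p under 0.05, where 24.5% of all genes did, and the median of the members was −0.89 against 0.07 over all genes. Over protein-coding genes of at least 10 CPM, the median by length ran from −0.99 under 1000 bases to 0.35 at 4000 bases or more. The call of Prdx5 was lost when any 1 of 11 libraries was left out, and it was kept without PT-ND replicate 1, T-D replicate 1 or T-D replicate 2, the other libraries of the 14. After the correction for length and GC content, Prdx5 was at −0.64 (adjusted p = 0.173), Gpx4 at −0.39 (adjusted p = 0.374) and Prdx3 at −0.53 (adjusted p = 0.113).

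Of the cell markers, 2 of 10 endothelial and 1 of 10 smooth muscle and interstitial markers passed as higher in the interaction, 1 of 16 proximal tubule markers as lower, and 1 of 8 tubular injury markers in either direction, and their part was not tested.

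**Figure D4:**
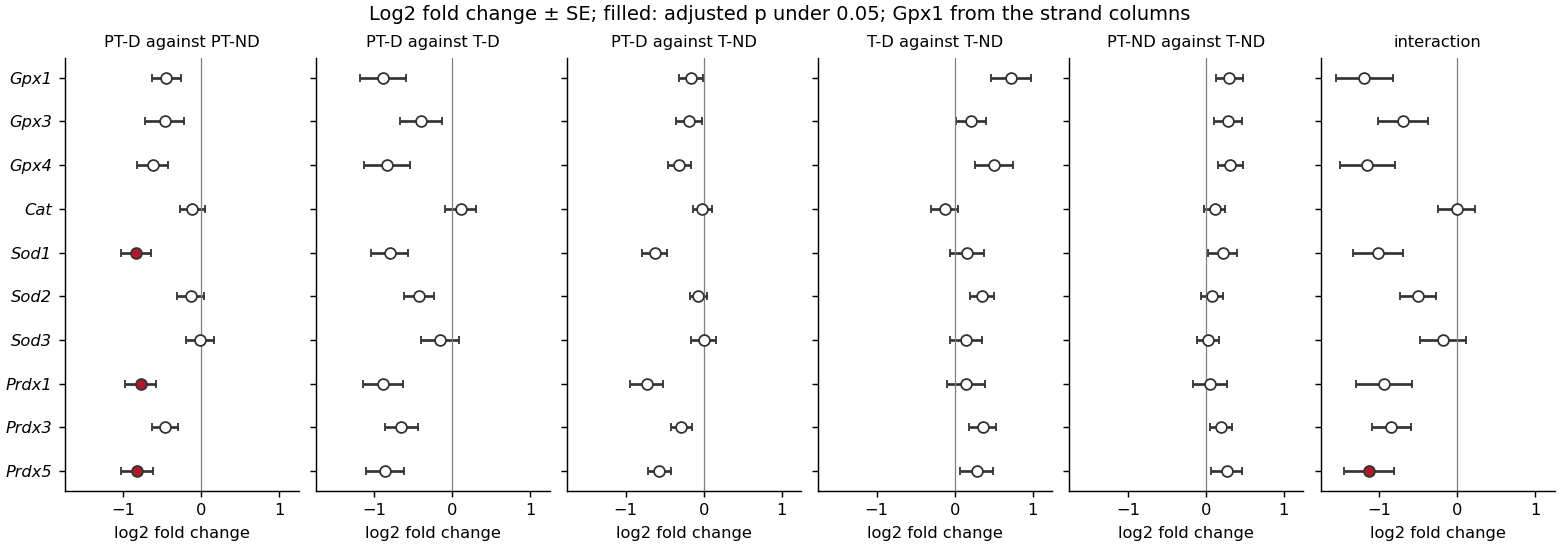
Log2 fold change ± SE of the 10 members in each comparison of 2 groups and in the interaction, from edgeR; filled points passed at an adjusted p under 0.05, and Gpx1 is drawn from the strand columns. Sod1, Prdx1 and Prdx5 are filled in PT-D vs. PT-ND and Prdx5 in the interaction; Cat and Sod3 lie between −0.18 and 0.14 throughout.

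Sod1, Prdx1 and Prdx5 are the members that passed, and their promoters are shown with the core of the antioxidant response element, the site bound by NRF2 with small MAF proteins. The core was searched as TGANNNNGC on both strands of promoters read from GRCm39, 250 bases before to 50 after the start. The start was that of the canonical transcript in the GENCODE annotation, for protein-coding genes. The match is in capitals, and all 10 members had such a promoter.
Prdx1, chr4:116542491-116542790, plus strand, match from −78 on the opposite strand: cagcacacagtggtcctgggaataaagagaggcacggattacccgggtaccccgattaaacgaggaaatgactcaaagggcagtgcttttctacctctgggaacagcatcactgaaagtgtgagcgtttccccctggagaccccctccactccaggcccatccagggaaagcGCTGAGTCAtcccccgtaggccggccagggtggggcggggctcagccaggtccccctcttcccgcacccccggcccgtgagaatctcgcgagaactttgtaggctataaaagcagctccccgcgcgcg
Sod1, chr16:90017158-90017457, plus strand, match from −95 on the opposite strand: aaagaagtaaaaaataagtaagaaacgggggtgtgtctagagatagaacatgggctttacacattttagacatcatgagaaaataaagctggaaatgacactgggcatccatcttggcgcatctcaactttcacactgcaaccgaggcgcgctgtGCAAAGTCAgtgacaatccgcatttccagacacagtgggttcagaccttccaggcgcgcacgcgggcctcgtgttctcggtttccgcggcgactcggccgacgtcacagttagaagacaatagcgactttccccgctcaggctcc
Prdx5, chr19:6887743-6888042, minus strand, match from −83 on the same strand: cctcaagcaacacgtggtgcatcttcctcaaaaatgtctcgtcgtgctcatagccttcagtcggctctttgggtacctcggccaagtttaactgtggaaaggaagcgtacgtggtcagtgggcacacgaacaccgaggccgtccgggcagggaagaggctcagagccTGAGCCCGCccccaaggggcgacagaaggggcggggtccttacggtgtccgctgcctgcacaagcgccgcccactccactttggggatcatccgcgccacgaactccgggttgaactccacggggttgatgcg
The core was also found in the promoter of Sod3, at −218, and thus in 4 of 10 members against 40.4% of 21757 promoters. The narrower form TGACNNNGC, which every match of it shares with the first form, was in the promoters of Prdx1 and Sod1 and in 12.5% of all promoters. Prdx1 and Prdx3 hold TATAAA, as do 13.2% of promoters. A match describes the letters and not binding.

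The genes around the members were grouped by role. Over all genes, 12.9% passed in PT-D vs. PT-ND (5.78% as lower), 2.76% in PT-D vs. T-ND and 6.23% in the interaction. Among genes of at least 10 CPM, 24.6% passed in PT-D vs. PT-ND, and the counts below stand beside these shares. Among 4 tested relatives of the glutathione peroxidases, none passed in PT-D vs. PT-ND, and Gpx6, a form known from the olfactory epithelium, passed in PT-D vs. T-ND, with a log2 fold change of −1.37 (SE 0.28, adjusted p = 0.038). Among 3 further peroxiredoxins, 1 passed in PT-D vs. PT-ND. This was Prdx4, the form of the endoplasmic reticulum, at −0.68 (SE 0.18, adjusted p = 0.0299).

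Of 16 genes of the thioredoxin system and of methionine sulfoxide repair, 3 passed as lower in PT-D vs. PT-ND and none as higher, with a median of −0.28. Txn2, the mitochondrial thioredoxin that serves Prdx3 and Prdx5, was 157 ± 17.7 CPM in PT-D and 241 ± 38.1 CPM in PT-ND (SD, n = 3 in each group), a log2 fold change of −0.62 (SE 0.16, adjusted p = 0.033). Msrb2, a mitochondrial methionine sulfoxide reductase, was at −1.10 (SE 0.26, adjusted p = 0.0215) and Txnrd3, a thioredoxin and glutathione reductase, at −1.04 (SE 0.20, adjusted p = 0.0106). In the interaction Msra passed at −0.81 (SE 0.22, adjusted p = 0.044) and Glrx5 at −0.96 (SE 0.27, adjusted p = 0.0455), both named after their values were seen.

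Glutathione synthesis and recycling gave 1 call of 10 genes, Ggct, an enzyme of glutathione breakdown, at −0.74 in PT-D vs. PT-ND (SE 0.20, adjusted p = 0.0342), with a list median of −0.05. NADPH supply gave 1 of 8, Idh2, the mitochondrial isocitrate dehydrogenase that makes NADPH, at 398 ± 66.6 CPM in PT-D and 592 ± 37.2 CPM in PT-ND (SD, n = 3 in each group) and −0.57 on the log2 scale (SE 0.17, adjusted p = 0.0445).

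Of 15 genes of selenoprotein synthesis and selenium supply, 3 passed as lower in PT-D vs. PT-ND. Selenom, a selenoprotein of the endoplasmic reticulum, was at −1.13 (SE 0.21, adjusted p = 0.00976) and Scly, which frees selenium from selenocysteine, at −0.56 (SE 0.14, adjusted p = 0.0305). Pstk, a kinase of selenocysteine synthesis, was at −0.94 (SE 0.23, adjusted p = 0.024). As for Gpx1, its unstranded column kept only part of the reads, 40.0% of those in the strand columns, and from the latter its adjusted p was 0.929. Selenom and Scly also passed in the interaction, at −1.31 (adjusted p = 0.0326) and −0.69 (adjusted p = 0.0374).

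Among 14 peroxisome genes, 2 passed in PT-D vs. PT-ND, both genes of peroxisome assembly. Pex19 was at −0.74 (SE 0.14, adjusted p = 0.00966) and Pex3 at −0.56 (SE 0.15, adjusted p = 0.0314), and Pex19 passed also in PT-D vs. T-ND, at −0.63 (SE 0.13, adjusted p = 0.0414). Of 8 genes of metal delivery and redox sensing, 2 passed as lower in PT-D vs. PT-ND. Ccs, the chaperone that loads copper into SOD1, was at −0.66 (SE 0.15, adjusted p = 0.0185) and passed in the interaction at −0.83 (SE 0.19, adjusted p = 0.0303). In the interaction 3 of the 8 passed as lower and 1 as higher. Slc25a39, the carrier that brings glutathione into mitochondria, was at −0.68 (SE 0.18, adjusted p = 0.0345) and at −1.13 in the interaction (SE 0.28, adjusted p = 0.0342). The other interaction calls of these 8 genes, named after their values were seen, were Atox1, a copper chaperone, at −1.15 (SE 0.31, adjusted p = 0.0405) and Keap1, which marks NRF2 for degradation, in the other direction at 0.81 (SE 0.22, adjusted p = 0.044).

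Of 11 genes that make superoxide or peroxide, 2 passed as higher and 1 as lower in PT-D vs. PT-ND, with a median of 0.40. Xdh, xanthine dehydrogenase, was 173 ± 42.3 CPM in PT-D and 49.1 ± 11.3 CPM in PT-ND (SD, n = 3 in each group), a log2 fold change of 1.81 (SE 0.22, adjusted p = 0.00222). Cybb, the catalytic subunit of the phagocyte NADPH oxidase, rose by 0.94 (SE 0.21, adjusted p = 0.0187), and Cyba, its small partner, was at −0.71 (SE 0.20, adjusted p = 0.0401). Cyba also passed in the interaction, at −1.10 (SE 0.27, adjusted p = 0.0326). T-ND replicates ranged from 36.2 to 192 CPM for Xdh, a spread that reached above the PT-ND level and into that of PT-D. No gene of these 9 lists passed in T-D vs. T-ND, PT-ND vs. T-ND or PT-D vs. T-D.

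Genes whose pattern over the 14 libraries was most like that of a member were found as the smallest root mean square difference of gene-centred log2 levels, among 12152 other genes with a symbol and at least 50 normalized counts on average (13262 where the strand columns were used). For Prdx3 these were Get3 (0.0511) and Chchd3 (0.0634), and for Sod2 they were Smpdl3a (0.0545) and Mdh2 (0.0777). For Prdx5 they were Fam162a (0.055) and Rps6 (0.0716), for Prdx1 Dad1 (0.072) and Cyb5a (0.0943), and for Sod1 Calml4 (0.0829) and Rpl5 (0.0844). Gpx4 was nearest to Gstm5 (0.0863) and Mrpl13 (0.0974). Cat was nearest to Parva (0.106) and Aco1 (0.109), Gpx3 to Vegfb (0.127) and Cryl1 (0.13), and Sod3 to Aldh4a1 (0.149) and Plekhb2 (0.15). Gpx1 from the unstranded column had no close neighbour (Etfb, 0.495), while from the strand columns it had Msrb1 (0.122) and Gstm5 (0.145). The members' own SD over the libraries ran from 0.194 for Cat to 0.442 for Prdx1 among those counted fully in the unstranded column.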

How the data were processed

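Poly(A) mRNA of whole kidney was sequenced from libraries that do not keep the strand. The authors aligned the reads with STAR to GRCm39 and deposited the counts of each gene, an unstranded column, which was used here, and 2 columns by strand, which were summed where named. Of 56980 gene IDs, 56236 matched the GENCODE mouse annotation used here, a later release than the study's. Genes needed over 10 counts in total, and 22339 had them. The 5 pairs of groups were tested separately with edgeR 4.0.16 in R 4.3.3 (TMM, quasi-likelihood, two-sided), and the interaction on all 14 libraries. The procedure was tested on simulated data. The alternatives, DESeq2 1.42.0 among them, are listed with their effect at the end. The members and gene lists were chosen with earlier results of these data known. Named genes are all members, up to 3 genes per list with the smallest adjusted p among those past the test in PT-D vs. T-D, PT-D vs. T-ND or either STZ comparison, and the 2 nearest genes of each member. P-values measure the spread between these mice, which may in part be technical.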

Additional observations from a re-analysis of the deposited data

Results flagged for a closer look

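The effect of STZ on Prdx5 differed between mice born preterm and at term by −1.13 on the log2 scale, by the test of the interaction itself (edgeR, adjusted p = 0.0491). This call was kept in only 4 of 12 other settings and in 3 of 14 fits with a library left out. From the strand columns it was lost (edgeR, adjusted p = 0.0505). The 3 PT-D kidneys, between 954 and 1086 CPM, lay below the 3 PT-ND kidneys, while the T-D kidneys, between 1429.8 and 2744 CPM, overlapped the T-ND kidneys. No member had a library far enough from the rest of its group to be singled out among the 4 T-ND or the 4 T-D kidneys.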

How the results depend on the processing

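In this account of the alternatives, Gpx1 is taken from the unstranded column unless the strand columns are named. Counts of members that passed depended on the tool and the libraries. The number of all genes that passed is given in brackets. In PT-D vs. PT-ND, 3 members passed (2881 genes), and 5 did so by DESeq2 (4219). With no filter on low counts 4 passed (4186), as did 4 with upper quartile normalization (3056). Only Sod1 and Prdx5 passed with all 14 libraries in a single fit (2102), and only Sod1 and Prdx1 with the correction for length and GC content (1935). Among the libraries without the suffix a, an alternative chosen after the data were seen, 0 passed (956). With a log2 fold change beyond 1 also required, 0 passed (1105), and between 0 and 5 did with a library left out. In PT-D vs. T-D the count of 0 (43 genes) became 6 by DESeq2 (2284) and 5 with no filter on low counts (1694). It became 2 with all 14 libraries in a single fit (1323), and it stayed 0 with any library left out. In PT-D vs. T-ND the count of 0 (616 genes) became 3 by DESeq2 (2802) and 2 with no filter (1341). It became 1 with the suffix as a covariate (976) and 1 with the correction for length and GC content (472). It lay between 0 and 3 with a library left out. The interaction gave 1 member (1392 genes) and 5 by DESeq2 (3138). It gave 3 with no filter (1645), 2 with RLE normalization (1429) and 2 with the filterByExpr filter (1976). It gave 0 with upper quartile normalization, with the suffix as a covariate, with the correction for length and GC content, without the mitochondrially encoded genes, from the strand columns and among the libraries without the suffix a, and between 0 and 4 with a library left out. Without T-D replicate 1, Gpx1 from the strand columns passed as well (−1.36, adjusted p = 0.0279). In T-D vs. T-ND and PT-ND vs. T-ND no alternative gave a call. The cause of these differences was not tested.

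Libraries with the same replicate number were not paired by any label. The correlation of their deviations from the group means had a median of −0.13 over 19 pairs, from −0.37 to 0.27. The median over 54 other pairs was 0.018. Whether libraries with the same number shared a litter or a batch cannot be told from these values. The study's own list of libraries numbers PT-D otherwise than the labels used here, so the pairs that hold a PT-D library, and the block values that rest on them, are in doubt. With a replicate block, 3 members passed in PT-D vs. PT-ND and 0 in the interaction, where Prdx5 had a log2 difference of −1.07 (adjusted p = 0.0866). With the block and the correction for length and GC content, 2 passed in PT-D vs. PT-ND and 0 in the interaction. With the block, the log2 values of the other sign were Prdx1 −0.021 in PT-ND vs. T-ND, Cat −0.020 in PT-D vs. T-D, Sod3 0.047 in PT-D vs. T-ND and Cat 0.017 in the interaction. With the block and the correction they were Gpx1 (unstranded) 0.010 in PT-D vs. PT-ND, Gpx1 (unstranded) 0.091 in PT-D vs. T-ND, Cat 0.042 in PT-D vs. T-ND and Cat 0.088 in the interaction.

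Of the log2 fold changes of single members under these alternatives, 1128 kept direction and side of the threshold, 43 gained a call, 35 lost one and 54 changed sign, none of these a call in either fit. With no filter on low counts, the log2 values of the other sign were Sod3 0.0018 in PT-D vs. T-ND and Cat 0.0074 in the interaction. With all 14 libraries in a single fit, the log2 values of the other sign were Sod3 0.0075 in PT-D vs. T-ND. With the library-name suffix as a covariate, the log2 values of the other sign were Cat 0.013 in the interaction. Without the mitochondrially encoded genes, the log2 values of the other sign were Sod3 0.0014 in PT-D vs. T-ND and Cat 0.0027 in the interaction. From the strand columns, the log2 values of the other sign were Cat 0.0016 in the interaction. With the correction for length and GC content, the log2 values of the other sign were Cat 0.028 in PT-D vs. T-ND and Cat 0.062 in the interaction. Among the libraries without the suffix a, the log2 values of the other sign were Sod3 0.084 in PT-D vs. PT-ND, Gpx1 (unstranded) −0.40 in PT-ND vs. T-ND, Sod3 −0.058 in PT-ND vs. T-ND, Cat 0.046 in PT-D vs. T-ND, Sod3 0.014 in PT-D vs. T-ND and Sod3 0.055 in the interaction. With a library left out, the following ranges crossed 0: Cat from −0.22 to 0.0074 in T-D vs. T-ND, Sod1 from −0.080 to 0.27 in T-D vs. T-ND, Prdx1 from −0.10 to 0.29 in T-D vs. T-ND, Sod2 from −0.24 to 0.035 in PT-D vs. PT-ND, Sod3 from −0.20 to 0.091 in PT-D vs. PT-ND, Gpx1 (unstranded) from −0.092 to 0.96 in PT-ND vs. T-ND, Cat from −0.0069 to 0.16 in PT-ND vs. T-ND, Sod2 from −0.091 to 0.17 in PT-ND vs. T-ND, Sod3 from −0.052 to 0.069 in PT-ND vs. T-ND, Prdx1 from −0.12 to 0.19 in PT-ND vs. T-ND, Cat from −0.022 to 0.19 in PT-D vs. T-D, Cat from −0.093 to 0.032 in PT-D vs. T-ND, Sod3 from −0.18 to 0.10 in PT-D vs. T-ND and Cat from −0.13 to 0.098 in the interaction. From the strand columns, Gpx1 in PT-ND vs. T-ND ran from 0.15 to 0.39 with a library left out.

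The number of all genes that passed moved as well. It was 2881 in PT-D vs. PT-ND (956 to 4219 under the other settings, 856 to 3453 with a library left out), 43 in PT-D vs. T-D (17 to 2284, and 26 to 241), 616 in PT-D vs. T-ND (61 to 2802, and 28 to 2356) and 1392 in the interaction (12 to 3138, and 76 to 1703). It was 15 in T-D vs. T-ND (1 to 467, and 2 to 314) and 18 in PT-ND vs. T-ND (6 to 307, and 1 to 100). Upper quartile normalization moved the share of higher genes among those that passed from 55.3% to 43.0% in PT-D vs. PT-ND and from 58.3% to 46.9% in PT-D vs. T-ND.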
